A study of Mus musculus with 24 samples.

Results

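A set of 10 chaperone genes was followed in the cerebral cortex of young mice of 4 inbred strains: 5 whose proteins work in the cytosol (Hspa1b, Hspa8, Hsph1, Hsp90aa1 and Dnajb1) and 5 whose proteins work in the endoplasmic reticulum, the ER (Hspa5, Hsp90b1, Pdia4, Sdf2l1 and Dnajb9). The genes were taken by name, with earlier results of these data known. The array's annotation names 22180 genes singly. Of the 10 listed, 9 were measured on a probe set (a group of array probes read as 1 value) of their own, 5 cytosolic and 4 ER members. Pdia4 was covered only by a probe set that also names Mir704, so it is not counted among the measured members, and its shared value is given apart.

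The series models neuronopathic Gaucher disease, a lysosomal storage disorder of the brain, with conduritol B-epoxide (CBE), an irreversible inhibitor of acid beta-glucosidase. Male mice of the strains SV129, FVB, C57 (C57BL/6JOlaHsd) and C3H received intraperitoneal CBE at 25 mg/kg per day from postnatal day 8 to 18, or phosphate-buffered saline (PBS) over the same days, and were 18 days old at collection. There were 3 mice and 3 arrays in each of the 8 groups, in the order SV129 CBE, SV129 PBS, FVB CBE, FVB PBS, C57 CBE, C57 PBS, C3H CBE and C3H PBS. The enzyme was inhibited by a drug in every cell type it reached, no gene was altered, and each sample was a brain slice holding cortex, a mixture of cells in which fewer cells of a type and less RNA per cell cannot be told apart. Transcripts that mark cortical neurons were bright on all 24 arrays: the means of Tbr1, Cux2, Rorb, Fezf2 and Slc17a7 were at least as high as those of 80.2% of all genes. Array medians lay between 4.14 and 4.22 on the log2 scale.

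Cytosolic chaperones of the HSP70 and HSP90 classes hold unfolded proteins and pass them on, and the heat shock factor HSF1 switches on the inducible ones, Hspa1b among them, when unfolded protein builds up in the cytosol. Hspa8 is the constitutive HSP70, Hsph1 exchanges its nucleotide, Dnajb1 delivers its clients, and Hsp90aa1 is the stress-inducible HSP90. In the ER the HSP70 is Hspa5 (BiP), the HSP90 is Hsp90b1 (GRP94), Pdia4 rearranges disulfide bonds, and Sdf2l1 and Dnajb9 assist BiP. These ER genes are classical targets of the unfolded protein response, which runs through ATF6, XBP1 and ATF4.

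The promoters of 4 members are shown because they hold the binding motif of one of those pathways. They come from RefSeq on build GRCm38.p6, run 5′ to 3′ over the 250 bases before the annotated start of transcription, and carry the motif in capitals. Promoter sequences were matched for 8 of the 10 genes. Hspa1b lies at chr17:34959239-34959488 on the minus strand, Hsph1 at chr5:149636316-149636565 on the minus strand, Hspa5 at chr2:34771840-34772089 on the plus strand and Hsp90b1 at chr10:86705445-86705694 on the minus strand.
Hspa1b: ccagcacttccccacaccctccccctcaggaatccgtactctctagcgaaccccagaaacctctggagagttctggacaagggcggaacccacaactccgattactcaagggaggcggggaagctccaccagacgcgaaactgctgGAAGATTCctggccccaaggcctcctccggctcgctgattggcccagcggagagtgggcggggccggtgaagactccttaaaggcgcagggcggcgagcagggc
Hsph1: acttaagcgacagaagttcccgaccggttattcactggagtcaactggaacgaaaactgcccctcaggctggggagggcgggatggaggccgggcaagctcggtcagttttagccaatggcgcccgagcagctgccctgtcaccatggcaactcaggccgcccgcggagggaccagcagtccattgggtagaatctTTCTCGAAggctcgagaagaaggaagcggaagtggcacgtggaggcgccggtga
Hspa5: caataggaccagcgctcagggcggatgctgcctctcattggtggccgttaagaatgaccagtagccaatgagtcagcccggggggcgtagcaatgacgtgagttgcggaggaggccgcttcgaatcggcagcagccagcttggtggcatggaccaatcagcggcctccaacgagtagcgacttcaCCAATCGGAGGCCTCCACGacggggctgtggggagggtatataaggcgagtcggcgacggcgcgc
Hsp90b1: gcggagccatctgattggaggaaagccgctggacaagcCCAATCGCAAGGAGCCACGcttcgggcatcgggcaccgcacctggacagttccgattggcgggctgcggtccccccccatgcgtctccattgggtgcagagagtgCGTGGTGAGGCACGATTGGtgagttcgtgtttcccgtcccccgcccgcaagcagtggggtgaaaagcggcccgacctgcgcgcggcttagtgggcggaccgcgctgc
The capitals in Hspa1b and Hsph1 are a pair of heat shock element units (GAANNTTC or TTCNNGAA, the same on both strands), which 12.8% of 32851 promoter windows of that length held. A run of 3 such units, GAA and TTC in turn with 2 bases between, was in none of the members' windows, and in 0.466% of all windows. The capitals in Hspa5 and Hsp90b1 are the ER stress element (CCAAT and CCACG with 9 bases of any kind between, sought on both strands), present once in Hspa5, 65 to 47 bases before the start, and at 2 places in Hsp90b1, 1 of them on the opposite strand. Only 0.113% of all windows held that element. The related ER stress element II (ATTGG and CCACG with 1 base between) was in no member's window and in 0.0304% of all windows. No match overlapped another motif, and a match of letters is a description, not a binding site.

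Each member was read on its brightest probe set with 1 gene name: Hspa1b on 17344126, Hspa8 on 17516365, Hsph1 on 17455507, Hsp90aa1 on 17284002, Dnajb1 on 17502954, Hspa5 on 17370103, Hsp90b1 on 17243738, Sdf2l1 on 17328625 and Dnajb9 on 17280893. Values are deposited log2 signals, and because probe sets have no common scale, levels are not compared between genes. Hspa1b varied most over the 24 arrays, by 2.42 log2 units (4.41 to 6.82). The other 8 members spanned between 0.33 units (Hsp90b1) and 0.86 units (Sdf2l1). The spread between mice of 1 group ran from an SD of 0.041 for Hspa8 to 0.196 for Hspa1b.

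**Figure D1:**
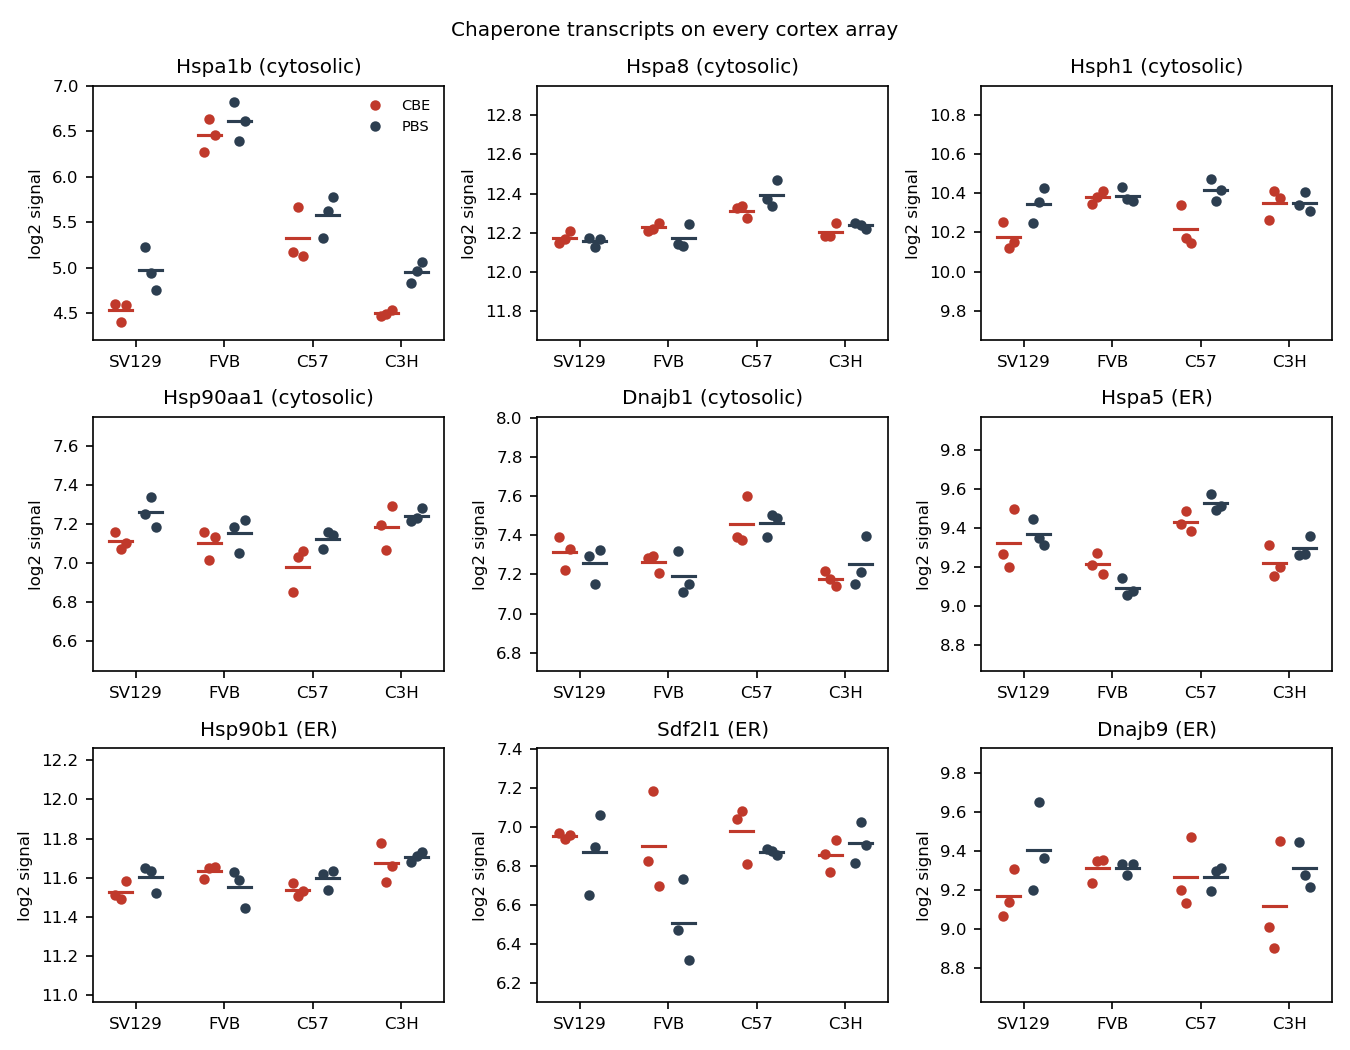
Log2 signal of the 9 measured members on every array, with a point per mouse and a bar at the group mean; within each strain CBE is on the left and PBS on the right. Each vertical axis spans 1.3 units except that of Hspa1b, which spans 2.8 units. FVB stands above the other strains in the Hspa1b panel, at 6.27 to 6.82 on its 6 arrays.

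Some chaperone signals differed between strains in mice given no inhibitor. Whether sequence differences between the strains under the probes altered these signals was not tested. In PBS arrays 3 of the 9 members differed between strains by limma's F-test (adjusted p under 0.05): Hspa1b (adjusted p = 1.7e-07), Hspa5 (adjusted p = 0.0022) and Hspa8 (adjusted p = 0.017). Over all genes 13% were called in this test. Sdf2l1 (adjusted p = 0.059) and Dnajb1 (adjusted p = 0.097) missed the threshold there, and Hsp90b1, Hsp90aa1, Hsph1 and Dnajb9 gave adjusted p between 0.36 and 0.86. Of the 3 called genes, Hspa1b and Hspa8 are cytosolic and Hspa5 is an ER member. Dnajb1 and Sdf2l1 passed only against the mean of the other 3 strains, in C57 and FVB. Those contrasts called 9.81% and 3.9% of all genes.

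The signal of Hspa1b, the inducible HSP70, was highest in FVB on its own probe set. FVB PBS arrays read 6.82, 6.39 and 6.62, against 5.33, 5.63 and 5.78 in C57, 5.23, 4.94 and 4.76 in SV129 and 4.83, 4.96 and 5.07 in C3H. All 3 FVB arrays lay above all 9 others. FVB exceeded the mean of the other 3 strains by 1.44 ± 0.12 log2 units (SE; 2.72-fold, adjusted p = 1.7e-07), and it ranked 9 by p among 22180 genes in that comparison. The order was FVB, C57, SV129 and C3H: FVB minus C57 was 1.03 ± 0.15 (adjusted p = 1e-04), and C57 exceeded C3H by 0.62 ± 0.15 (adjusted p = 0.011). SV129 minus C57 was -0.60 ± 0.15 (adjusted p = 0.013), and SV129 and C3H did not differ beyond their spread (0.02 ± 0.15). Of all genes 3.9% were called in FVB against the rest, 1.21% higher and 2.69% lower. SV129 (-0.74 ± 0.12) and C3H (-0.77 ± 0.12) were each lower than the mean of their other 3 strains, in comparisons that called 4.14% and 2.49% of all genes. Thalamic markers (6 of 6 measured) summed to 1009 to 1250 on SV129 PBS arrays and 714 to 967 on the other PBS arrays, and their part in the SV129 difference was not tested.

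The CBE arrays did not enter the means of the PBS comparison, only its shared estimate of spread. Their Hspa1b means had the same order, and SV129 and C3H again did not differ beyond their spread (0.04 ± 0.15). FVB CBE arrays read 6.27, 6.64 and 6.46, against 5.17, 5.67 and 5.13 in C57, 4.61, 4.41 and 4.59 in SV129 and 4.47, 4.49 and 4.53 in C3H. FVB exceeded the other 3 by 1.67 ± 0.12 (3.18-fold, adjusted p = 1.4e-08). Here Hspa1b was the only 1 of 9 members called by the F-test (adjusted p = 1.5e-08), where 11.8% of all genes were. Hspa1a, the adjacent and nearly identical gene, was measured on a probe set of its own and was ordered otherwise: FVB minus the others was -0.25 ± 0.10 in PBS arrays (adjusted p = 0.21), while C57 was higher than the others by 0.43 ± 0.10 (adjusted p = 0.0098). A probe set that names both genes (17336820) read only 3.32 on average and gave -0.02 ± 0.07 for FVB in PBS arrays, so which of the near-identical copies a probe set reads is uncertain. Meningeal and fibroblast markers (6 of 6 measured) summed to 365 to 419 on FVB PBS arrays and 193 to 353 on the other PBS arrays, and their part in the Hspa1b result was not tested.

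Among the ER members, Hspa5 split the strains at opposite ends. C57 PBS arrays read 9.57, 9.49 and 9.51 for Hspa5, against 9.14, 9.06 and 9.08 in FVB, 9.45, 9.35 and 9.31 in SV129 and 9.26, 9.27 and 9.36 in C3H. The C57 arrays lay above, and the FVB arrays below, all those of the other strains. C57 exceeded the mean of the other 3 by 0.27 ± 0.06 (1.21-fold, adjusted p = 0.0043), and FVB was lower than the mean of the other 3, by -0.30 ± 0.06 (adjusted p = 0.0045). Over all genes 9.81% were called in C57 against the rest, 5.18% higher. In CBE arrays Hspa5 gave 0.18 ± 0.06 for C57 (adjusted p = 0.07) and -0.11 ± 0.06 for FVB (adjusted p = 0.36). The C57 value passed in 4 of 10 other settings: after quantile normalization (adjusted p = 0.048), in an ordinary linear model (adjusted p = 0.048), with array quality weights (adjusted p = 0.032) and among genes with a mean of at least 5 (adjusted p = 0.043), and without SV129 CBE array 3 (adjusted p = 0.017) or C3H CBE array 1 (adjusted p = 0.046).

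Sdf2l1, a luminal partner of BiP, was lower in FVB than elsewhere in PBS arrays. It read 6.47, 6.73 and 6.32 in FVB, against 6.65, 6.89 and 7.06 in SV129, 6.89, 6.88 and 6.86 in C57 and 6.82, 7.02 and 6.91 in C3H. FVB PBS array 2 alone reached the range of the other strains, above the lowest SV129 array. The difference was -0.38 ± 0.10 (adjusted p = 0.03); it was -0.36 without FVB PBS array 1 (adjusted p = 0.10) and -0.28 without FVB PBS array 3 (adjusted p = 0.22). In CBE arrays the same contrast was -0.03 ± 0.10 (adjusted p = 0.94), with FVB at 6.83, 7.18 and 6.70.

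The probe set shared by Pdia4 and Mir704 had the pattern of Hspa5 in PBS arrays, in a fit over all 41034 probe sets. It read 7.01, 6.85 and 6.96 in C57 PBS arrays and 6.42, 6.44 and 6.31 in FVB PBS arrays, with 6.89, 6.70 and 6.79 in SV129 and 6.70, 6.47 and 6.65 in C3H. C57 minus the others was 0.34 ± 0.07 (adjusted p = 0.0034) and FVB minus the others was -0.39 ± 0.07 (adjusted p = 0.0025). In CBE arrays these contrasts were 0.26 ± 0.07 for C57 (adjusted p = 0.027) and -0.12 ± 0.07 for FVB (adjusted p = 0.45). Which of the 2 named transcripts the signal belongs to cannot be told from this probe set. Hsp90b1, which shares the ER stress element with Hspa5, was not called between strains in PBS arrays. Its largest difference from the mean of the other 3 was 0.12 ± 0.05, in C3H (adjusted p = 0.32). Between single strains FVB minus C3H was -0.152 ± 0.065 (adjusted p = 0.32), and all 24 arrays lay between 11.45 and 11.78. Dnajb9, read between 8.90 and 9.65, gave -0.08 to 0.11 for each strain against the mean of the other 3 in PBS arrays.

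Of the cytosolic members other than Hspa1b, Dnajb1 and Hspa8 were higher in C57 PBS arrays than in the other strains. Dnajb1 read 7.39, 7.50 and 7.49 in C57, against 7.29, 7.15 and 7.33 in SV129, 7.32, 7.11 and 7.15 in FVB and 7.15, 7.21 and 7.40 in C3H. 1 C3H array stood above the lowest C57 array, so the groups overlapped. The difference was 0.23 ± 0.07 (adjusted p = 0.031), and 0.20 ± 0.07 in CBE arrays (adjusted p = 0.058). The PBS call was lost without FVB PBS array 2 (adjusted p = 0.051), C57 PBS array 1 (adjusted p = 0.053), 2 (adjusted p = 0.15) or 3 (adjusted p = 0.12), or C3H PBS array 1 (adjusted p = 0.054).

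Hspa8 read 12.37, 12.33 and 12.47 in C57 PBS arrays and between 12.13 and 12.25 on the other 9 PBS arrays, with no overlap. The difference was 0.20 ± 0.05 (1.15-fold, adjusted p = 0.0051), and 0.16 without C57 PBS array 3 (adjusted p = 0.062). Its probe sets disagreed, however. Probe set 17434475, which read 8.36, 8.21 and 8.28 in C57, was lower there than in the other strains, by -0.89 ± 0.17 (adjusted p = 0.0023), while the probe set shared with Snord14e (17516383) was higher by 1.21 ± 0.22 (adjusted p = 0.0016). The remaining 2, 17548379 and 17548744, gave -0.02 ± 0.15 and -0.01 ± 0.15. On the brightest probe set itself the difference was 0.09 after quantile normalization (adjusted p = 0.23), and the F-test over strains did not pass after median centring (adjusted p = 0.051) or with PBS arrays alone (adjusted p = 0.094). The direction of the Hspa8 transcript is uncertain. Hsph1 and Hsp90aa1 gave differences between -0.09 and 0.09 for each strain against the mean of the other 3 in PBS arrays.

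**Figure D2:**
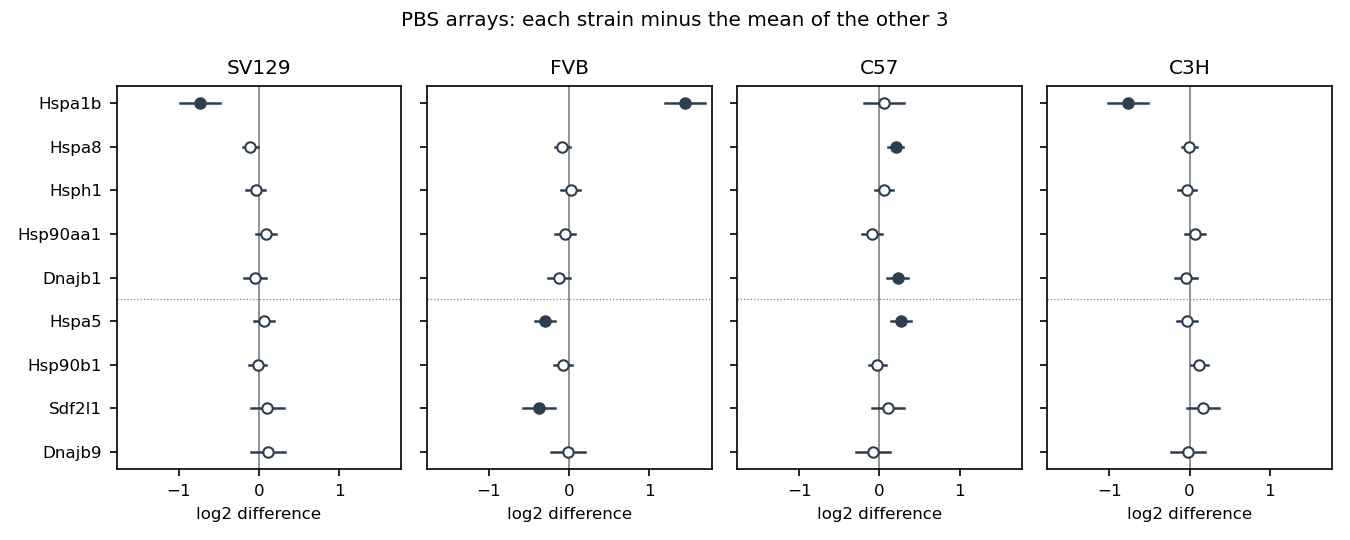
Log2 difference of each strain from the mean of the other 3 in PBS arrays, with the 95% confidence interval; filled points passed adjusted p under 0.05. Cytosolic members are above the dotted line and ER members below it; the FVB panel holds both the largest positive difference (Hspa1b, 1.44) and the negative differences of Hspa5 and Sdf2l1.

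The wider protein-folding genes were counted in the same comparisons. Of 36 measured ER folding and ER-associated degradation genes, 3 (8.33%, against 3.9% of all genes) were lower in FVB PBS arrays and 0 higher: Creld2 (-0.39), Dnajc3 (-0.35) and Herpud1 (-0.29). In C57, 5 were higher and 3 lower (22.2% in all, against 9.81% of all genes), the higher ones being Herpud1 (0.55), the ER-associated degradation proteins Os9 (0.38), Syvn1 (0.31) and Sel1l (0.27), and Creld2 (0.26), while Selenos (-0.26) had the largest difference of the lower ones. Sec24d, a COPII coat subunit, was the 1 gene called in SV129 (0.49, adjusted p = 0.0064) and the 1 called in C3H (-0.50, adjusted p = 0.0073). That was 2.78% of the list in each strain, against 4.14% and 2.49% of all genes. Among 26 regulators of the unfolded protein and integrated stress responses, Xbp1 (-0.30), Slc7a11 (-0.51) and Asns (-0.19) were lower in FVB (11.5%, against 3.9%). In C57 Atf4 (0.29), Xbp1 (0.23) and Asns (0.20) were higher and the kinase Eif2ak4 (-0.23) was lower (15.4%, against 9.81%). In CBE arrays FVB had 0 called of either list, where 250 of all genes were higher and 587 lower. C57 there had 4 ER genes higher (Herpud1, Syvn1, Os9 and Sel1l) and 2 lower, and 1 regulator higher and 2 lower. Over all genes 1193 were higher and 730 lower. Xbp1, Asns and Atf4 were not called in CBE arrays in either strain. In PBS arrays the median differences of the ER list were -0.069 in FVB and 0.002 in C57, and those over all genes were -0.002 and -0.017.

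The cytosolic list of 35 genes had median differences in PBS arrays of -0.06 in FVB and -0.03 in C57. SV129 had 3 called genes on it (8.57%, against 4.14% of all genes) and FVB 2 (5.71%, against 3.9%), while C57 had 6 (17.1%, against 9.81%) and C3H 1 (2.86%, against 2.49%). In SV129 the lens and glial chaperone Cryab (-1.11) and the small heat shock protein Hspb8 (-0.46) were lower and Dnajb4 (0.26) was higher. In FVB Fkbp5, a glucocorticoid-induced HSP90 partner (-0.51), and Hspb8 (-0.47) were lower. In C57 Hspa1a (0.43), Hspb8 (0.42) and Cct2 (0.35), a subunit of the cytosolic chaperonin, were higher, and Cacybp (-0.29), the heat shock factor Hsf2 (-0.28) and St13 (-0.21), an HSP70 cochaperone, were lower. Hspb8 was also the gene called in C3H (0.52). Other genes moved with C57. Immediate-early genes, which neurons switch on with activity, were higher in 9 of 20 cases, led by Npas4 (1.46), Nr4a1 (1.29) and Arc (1.14), and clock and cold-induced genes were higher in 11 of 17, led by Per1 (0.86) and Bhlhe40 (0.77). Neuronal markers (7 of 7 measured) summed to 24040 to 25910 on the C57 PBS arrays and 21890 to 23710 on the other PBS arrays. The part of these in the C57 results for Hspa5, Hspa8 and Dnajb1 was not tested.

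**Figure D3:**
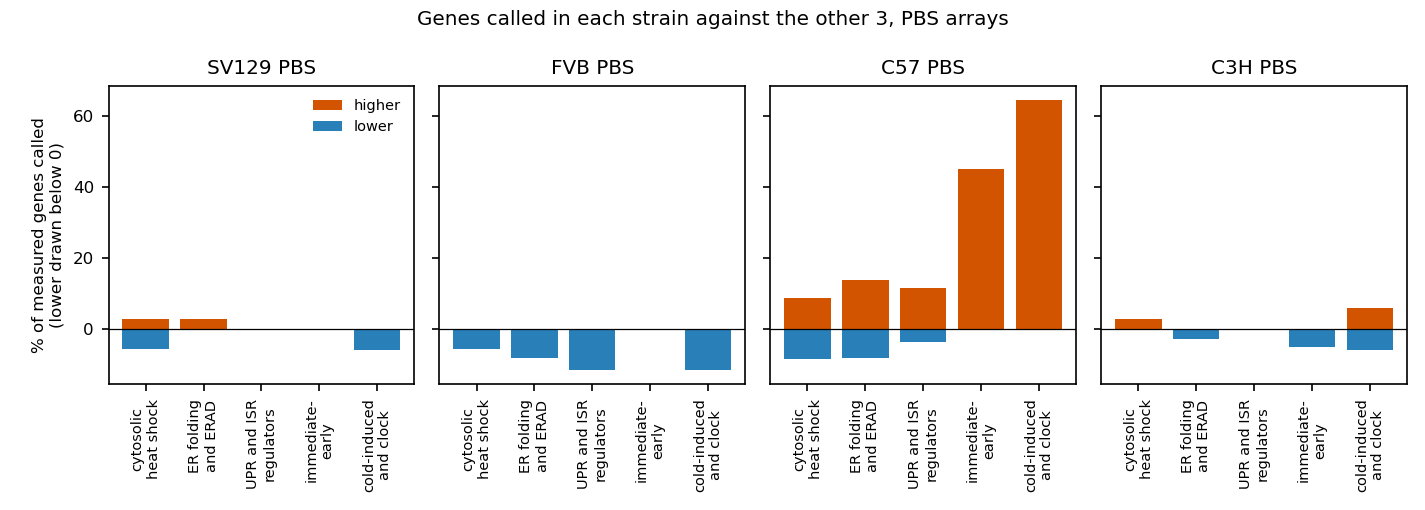
Percent of the measured genes of 5 lists that were called in each strain against the mean of the other 3 in PBS arrays, higher above 0 and lower below 0. The C57 panel holds the tallest bars, 64.7% for clock and cold-induced genes and 45% for immediate-early genes.

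CBE was set against PBS within each strain to ask whether the inhibitor altered either chaperone system. No member passed limma's test in a single strain: 0 of 9 in each of SV129, FVB, C57 and C3H, where 0.113%, 0.135%, 0.325% and 0.0361% of all genes were called. At an unadjusted p under 0.05 SV129 had 2 members and the other strains 1 each, against 13%, 6.27%, 5.78% and 5.02% of all genes, and an ordinary linear model (no shared prior on the spread) also called 0 in each strain. In the mean of the 4 within-strain differences 1 of 9 members was called, Hspa1b, which fell. Over all genes 0.726% were called there and 0.117% fell. At an unadjusted p under 0.05 that mean had 4 of 9 members, against 10.7% of all genes. Hspa1b, Hsph1 and Hsp90aa1 were the 3 lower ones and Sdf2l1 the 1 higher.

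The mean of Hspa1b was lower on CBE than on PBS arrays in all 4 strains, as it was for 9.97% of all genes. In SV129 the CBE arrays read 4.61, 4.41 and 4.59, against 5.23, 4.94 and 4.76 in PBS, and in C3H they read 4.47, 4.49 and 4.53, against 4.83, 4.96 and 5.07. The groups did not overlap in these 2 strains. In C57 the CBE arrays read 5.17, 5.67 and 5.13, against 5.33, 5.63 and 5.78 in PBS, and in FVB they read 6.27, 6.64 and 6.46, against 6.82, 6.39 and 6.62. Here the groups overlapped, and 10 of 12 CBE arrays lay below their strain's PBS mean.

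Within strains Hspa1b differed by -0.46 ± 0.15 in C3H (adjusted p = 0.67) and -0.44 ± 0.15 in SV129 (adjusted p = 0.19). The differences were smaller in C57, at -0.25 ± 0.15, and FVB, at -0.16 ± 0.15 (adjusted p = 0.93 in both). Their mean was -0.33 ± 0.07 (1.25-fold lower, adjusted p = 0.036). Without SV129 it was -0.29 and did not pass (adjusted p = 0.20). The call was also lost without any 1 of 16 arrays, with means from -0.33 to -0.30 and adjusted p of 0.05 to 0.084 after rounding: SV129 PBS 1 and 2, SV129 CBE 2 and 3, FVB PBS 1 and 3, FVB CBE 1 and 3, C57 PBS 2 and 3, C57 CBE 1 and 3, C3H PBS 2 and 3, and C3H CBE 1 and 2. The probe set that names both Hspa1a and Hspa1b gave -0.03 ± 0.04.

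None of the other 4 cytosolic members passed. Hsph1, the nucleotide exchange factor, gave -0.10 ± 0.03 in the mean of 4 strains (adjusted p = 0.28), with the larger differences in C57 (-0.20 ± 0.07) and SV129 (-0.17 ± 0.07) and differences of -0.009 in FVB and -0.002 in C3H. Its C57 CBE arrays read 10.34, 10.17 and 10.15, all below the PBS arrays at 10.47, 10.36 and 10.42. Hsp90aa1 gave -0.10 ± 0.04 (adjusted p = 0.29) and was below its strain's PBS mean on 10 of 12 CBE arrays. Hspa8 and Dnajb1 gave -0.01 ± 0.03 and 0.01 ± 0.04, with 95% confidence intervals of -0.07 to 0.05 and -0.07 to 0.10.

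None of the 4 measured ER members passed the test either. BiP (Hspa5) gave -0.02 ± 0.04 (95% confidence interval -0.10 to 0.05) and Hsp90b1 gave -0.02 ± 0.03 (-0.09 to 0.05), so a change of more than 0.1 log2 units in either direction of the 4-strain mean lay outside both intervals. Dnajb9 gave -0.11 ± 0.06 (adjusted p = 0.57). Sdf2l1 gave 0.13 ± 0.06 (adjusted p = 0.44) and 0.39 ± 0.12 in FVB (adjusted p = 0.45), where the CBE arrays read 6.83, 7.18 and 6.70, against 6.47, 6.73 and 6.32 in PBS. The lowest CBE array lay below the highest PBS array. The probe set shared by Pdia4 and Mir704 gave 0.08 ± 0.04 in the mean of 4 strains (adjusted p = 0.65) and 0.28 ± 0.08 in FVB (adjusted p = 0.57), where the CBE arrays read 6.75, 6.64 and 6.61 and the PBS arrays 6.42, 6.44 and 6.31 without overlap.

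The CBE arrays of Hspa5 lay on opposite sides of the PBS arrays in 2 strains, without a call in either. Its FVB CBE arrays (9.21, 9.27 and 9.16) all lay above the PBS arrays (9.14, 9.06 and 9.08), and its C57 CBE arrays (9.42, 9.48 and 9.38) all lay below the PBS arrays (9.57, 9.49 and 9.51). The same PBS arrays had placed FVB lowest and C57 highest for Hspa5, so the strain and CBE comparisons are not independent. The same limit holds for Sdf2l1 and the probe set of Pdia4 and Mir704 in FVB. The difference between the 2 responses, FVB minus C57, was 0.22 (adjusted p = 1). No overlap between CBE and PBS arrays was seen for 2 of 9 members in SV129 (Hspa1b and Hsp90aa1, CBE below), 1 in FVB (Hspa5, CBE above), 3 in C57 (Hsph1, Hsp90aa1 and Hspa5, CBE below) and 1 in C3H (Hspa1b, CBE below). Over all genes those shares were 15.5%, 11%, 13% and 9.67%.

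**Figure D4:**
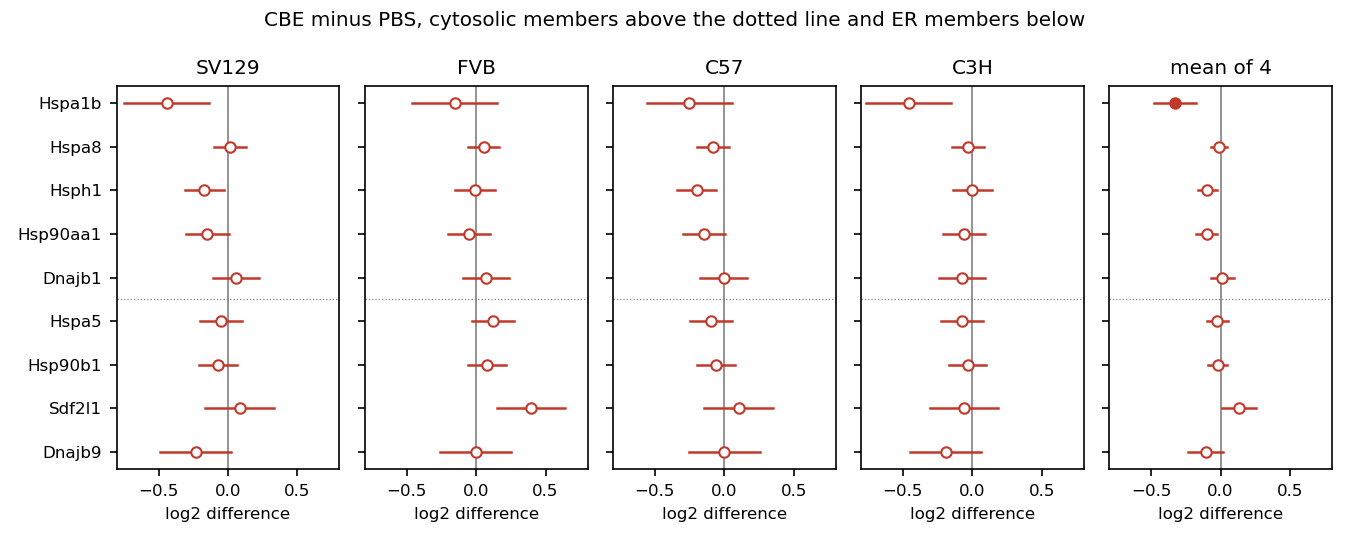
CBE minus PBS difference (log2) of the 9 measured members in each strain and in the mean of the 4 strains, with the 95% confidence interval; the filled point passed adjusted p under 0.05. Cytosolic members are above the dotted line and ER members below it, and only Hspa1b in the mean of 4 strains (-0.33) is filled.

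Set side by side, median CBE minus PBS differences in SV129 were -0.15 for cytosolic and -0.06 for ER members. They were -0.01 and 0.10 in FVB, -0.14 and -0.03 in C57, and -0.06 and -0.07 in C3H. Over all genes the medians lay between -0.012 and -0.003. In the mean of 4 strains the cytosolic median was -0.10 and the ER median -0.02, against -0.01 over all genes. Both sets hold few genes and share their PBS and CBE arrays, so these medians are a description and carry no test. A test of whether the response differed between strains called 0 of 9 members by limma's F-test (0 at an unadjusted p under 0.05), where 0.00902% of all genes were called and 6.57% had such an unadjusted p. The smallest adjusted p was that of Sdf2l1, 0.77.

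**Figure D5:**
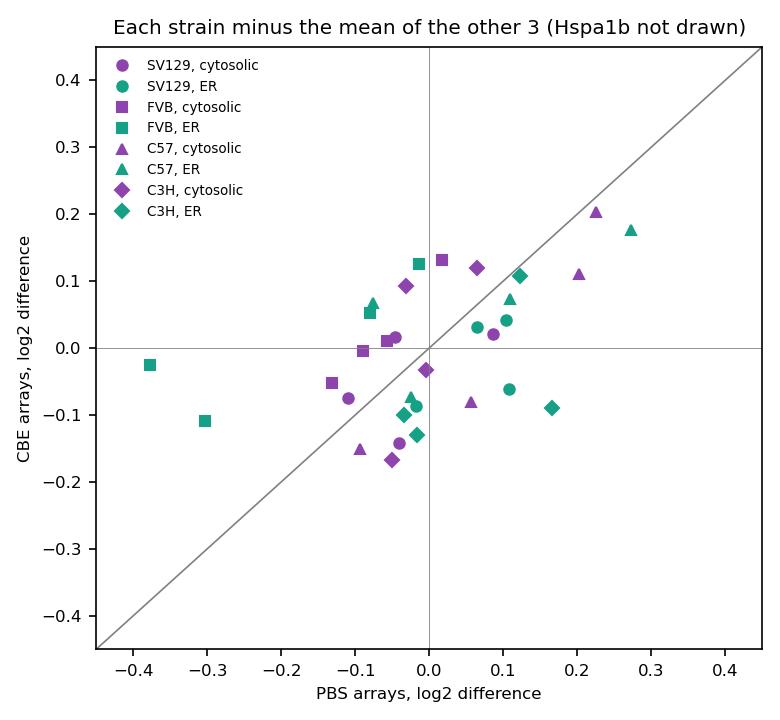
Log2 difference of each strain from the mean of the other 3, in PBS arrays on the horizontal axis and in CBE arrays on the vertical axis, for the 8 measured members other than Hspa1b; marker shape gives the strain, colour the compartment, and the line is equality. The ER points of FVB at the far left are Sdf2l1 (-0.38 in PBS and -0.03 in CBE arrays) and Hspa5 (-0.30 in PBS and -0.11 in CBE arrays).

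The wider pathway lists gave few CBE calls. In the mean of 4 strains 0 of 35 cytosolic and 0 of 36 ER genes passed limma's test, with 9 and 3 at an unadjusted p under 0.05 (10.7% of all genes), and their medians were -0.05 and -0.01. Among the 26 stress response regulators 1 rose, Eif2ak2 (0.72 ± 0.10, adjusted p = 0.00024), the double-stranded RNA kinase, which interferon also induces. Within single strains Eif2ak2 was called only in C57 (1.15 ± 0.20, adjusted p = 0.006). Immediate-early genes had a median difference of -0.65 in SV129, where Nr4a3 fell by 1.24 (adjusted p = 0.044), and thalamic markers (6 of 6 measured) summed to 669 to 837 on SV129 CBE arrays and 1009 to 1250 on SV129 PBS arrays. Sums of microglial markers (6 of 7 measured) were higher on CBE than on PBS arrays without overlap in FVB (1210 to 1438 and 1025 to 1130), C57 (1250 to 1375 and 1053 to 1221) and C3H (1281 to 1915 and 1088 to 1242). In SV129 the sums overlapped (986 to 1129 and 874 to 1179). Of the 6 markers, 0 were called between CBE and PBS in any strain, and the brightest weigh most in a sum. The part of these shifts in the members' differences was not tested.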

How the data were processed

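Cortex RNA of 24 mice was hybridised to 24 Affymetrix arrays. The deposited values are log2 signals, for 41034 probe sets on each array, made by the authors with Partek and RMA per the submitters' processing notes, and the base was inferred from the highest value (14.09). RMA shrinks differences of dim probe sets. Of the probe sets, 23521 had 1 gene symbol in the platform annotation, 1814 several and 15699 none; the brightest single-symbol probe set per gene left 22180 genes, with no filter. The members, lists, tests and alternatives were chosen with earlier results of these data known.

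A single limma 3.58.1 fit (R 4.3.3; 1 mean per group, residual degrees of freedom 16, prior 5.10) over all 24 arrays gave each contrast and F-test, two-sided, with Benjamini-Hochberg adjustment over 22180 genes and a threshold of 0.05. Errors are SEs. With 3 arrays a group the smallest p of an exact permutation test is 0.1. The labels do not say whether mice of a group were littermates. The procedure was tested on simulated data. All 10 members are named. Of the called genes of the other lists, at most 6 are named per list and contrast. Genes most alike were taken by Pearson's r. Markers were summed as 2 to the log2 value. The arrays' number limits precision.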

Additional observations from a re-analysis of the deposited data

How the results depend on the processing

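The 152 results were recomputed in 24 settings that left out 1 array each, and in other settings, 16 in all. Some of the 16 cover only part of the results, so each result had 9 to 13 of them. The count of members called in the mean of 4 strains, 1 (Hspa1b), became 0 in an ordinary linear model (adjusted p = 0.11), with array quality weights (0.068), with all probe sets tested together (0.088), with pairs of strain and replicate number as a block (0.075) and, chosen after seeing the data, over FVB, C57 and C3H alone (0.20). Leaving out 1 array gave counts of 0 to 1 there, 2 to 4 for strain differences in PBS arrays, 1 for those in CBE arrays, and 0 in each single strain and for differences in response. The C57 difference of Hspa8 in PBS arrays turned to -0.178 with the mean of its probe sets (and -0.361 in CBE arrays), and to -0.887, -0.02 and -0.008 on its other probe sets; it was 0.09 (adjusted p = 0.23) after quantile normalization. Its F-test lost the call after median centring (0.051) and with PBS arrays alone (0.094). Dnajb1 in C57 lost its call after median centring (0.057) and with PBS arrays alone (0.071), and Sdf2l1 in FVB in an ordinary model (0.058) and with all probe sets (0.051). The F-test of Sdf2l1 passed after median centring (0.039), with weights (0.045), among genes with a mean of at least 5 (0.036) and with the number as a block (0.047). In CBE arrays the C57 difference of Hspa5 passed in 4 settings (adjusted p of 0.032 to 0.048). That of Dnajb1 passed with weights (0.044) and among genes with a mean of at least 5 (0.036). That of Hspa8 passed as higher in an ordinary model (0.019) and with an intensity trend (0.05 after rounding), but as lower with the mean of its probe sets (0.048). In CBE arrays its probe set 17434475 gave -1.338 in C57 (adjusted p = 3.7e-05 by limma over all probe sets). The probe set shared with Snord14e gave 0.933 there (adjusted p = 0.013). The SV129 difference of Hspa8 in PBS arrays passed in an ordinary model (0.036). The strain calls of Hspa1b and Hspa5 in PBS arrays, by F-test and against the mean of the other 3, held in every setting that gave a value. Of 3990 recomputed differences 80 uncalled ones changed sign, at most 0.13 in size outside the other probe sets of Hspa8. The causes were not tested.

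Same-numbered mice did not deviate together: 1 of 12 correlations between CBE and PBS arrays of a strain exceeded 0.1 (-0.10 to 0.16), so replicate numbers were not taken as pairs. The replicate block changed the genes called in the mean of 4 strains from 161 to 148 with pairs and 164 with number alone. The number of arrays limits these results.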

Other observations

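Of the 10 measured genes nearest to Hspa1b on chromosome 17, 5 on each side, 0 were called in FVB against the other strains in PBS arrays by limma, where 3.9% of all genes were, and 1 (Hspa1a, adjusted p = 0.03) was called by the F-test over strains, where 13% of all genes were. Counts of 0 and 1 in 10 are near those shares. The testis-enriched HSP70 Hspa1l gave -0.46 ± 0.14 for FVB (adjusted p = 0.072) and the sialidase Neu1 gave 0.12 ± 0.09.

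After each group's mean was taken off, members varied together over the 24 arrays in only a few pairs, as a description with no p, since arrays share normalization. Pearson's r ran from -0.40 to 0.30 in the 10 cytosolic pairs (median 0.10), from -0.09 to 0.58 in the 6 ER pairs (median 0.06) and from -0.40 to 0.47 between compartments (median -0.01). The highest was that of Hspa5 with Hsp90b1. Other genes were ranked by r with the mean of each compartment's members, which was not scaled, so members of wide spread weigh most in it. Within groups Hspa1b had an SD of 0.196, against 0.041 to 0.092 for the other cytosolic members. Dnajb9 (0.161) and Sdf2l1 (0.154) had the widest among ER members. The genes named are the ends of a long ranking, where a high r can arise by selection alone. The genes most like the mean of the cytosolic members were Slc5a7 (0.78), Ube4a (0.75), Syndig1l (0.72), Riok2 (0.72), Tcf12 (0.70), Caln1 (0.70), Lrrc28 (0.69) and Hapln2 (0.69), and the least like it Sectm1b (-0.78), Cfap73 (-0.77), C77080 (-0.76) and Il1f10 (-0.76). For the ER members these were Zfp708 (0.82), Lsm2 (0.78), Anapc4 (0.77), Npy5r (0.76), Sec11a (0.74), Ica1 (0.73), Arhgap12 (0.72) and Smc6 (0.72), and at the other end Dzank1 (-0.76), Socs1 (-0.76), Sqstm1 (-0.75) and Vmn1r35 (-0.74).

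Endothelial markers (8 of 8 measured) summed to 1453 to 1568 on C57 CBE arrays and 1241 to 1334 on C57 PBS arrays, and pericyte and smooth muscle markers (6 of 6) to 1740 to 2100 and 1590 to 1634. Meningeal and fibroblast markers (6 of 6) summed to 184 to 265.6 on C57 CBE arrays and 278.9 to 336.5 on C57 PBS arrays, and the 5 cortical neuron markers to 4775 to 5010 on FVB CBE arrays and 4556 to 4633 on FVB PBS arrays. None of these groups overlapped, but of the single markers in these comparisons only 1, of pericytes and smooth muscle in C57, was called. Sums of choroid plexus, astrocyte, oligodendrocyte and striatal markers overlapped between CBE and PBS arrays in all 4 strains.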
